A study of Mus musculus with 7 samples.

Results

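The miR-200 family was followed through 7 small RNA libraries of mouse hippocampus. Its members were taken by name as the guide products mmu-miR-200a, mmu-miR-200b, mmu-miR-200c, mmu-miR-141 and mmu-miR-429, which are 5 of the 756 mature miRNA sequences listed, and all 5 reached the mean of at least 10 reads per library that was required for testing (476 of 756 sequences did). The libraries were made from pooled hippocampi of adult C57BL/6 mice aged 3 to 5 months. The genotypes were wildtype littermates, called controls here, and NIPP1* mice. NIPP1* is a fragment of a nuclear inhibitor of protein phosphatase 1 (PP1), joined to EGFP and placed under a tetO promoter, which rtTA2 driven by the CaMKIIalpha promoter switches on in forebrain neurons of adult mice fed doxycycline. Mice were either trained on an object recognition task, in which they explore objects in an arena, or handled in the same way without objects (non-trained). By their labels, there was 1 non-trained control, 1 non-trained NIPP1*, 3 trained control and 2 trained NIPP1* libraries. How the animals of a group were divided among its libraries is not stated, so the tests below measure the spread between libraries, part of which may be technical.

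Before the results, one conflict has to be stated. The group means in the deposited comparison tables were rebuilt from the libraries, with a weight for each library fitted by least squares. For the group that the tables called trained control, the 2 libraries labelled trained NIPP1* gave a root mean square error of 0.0128%. For the group that the tables called trained NIPP1*, the 3 libraries labelled trained control gave 0.0252%. With the labelled libraries the errors were 15.6% and 18.2% over 318 miRNAs. The transgene cannot be read from small RNA, so the genotype of the trained libraries could not be checked. The labels were followed, values under the grouping of the tables are given beside the comparisons in which the trained genotype enters, and the comparison of all 5 trained with both non-trained libraries is the same under either grouping.

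MicroRNAs are cut from hairpin transcripts and guide Argonaute proteins to messenger RNAs, mainly through pairing of the seed near their 5′ end. The miR-200 family is best known from epithelial cells, where it represses the transcription factors ZEB1 and ZEB2 and so keeps the epithelial state, and in the nervous system it is known from olfactory and other sensory epithelia and from the pituitary. One hairpin usually yields an abundant guide and a scarce product of the other arm, marked by an asterisk. The guides of this family come in a pair of seed classes that differ at a single base, which sets their target repertoires apart.

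The guide sequences are shown because they define the seed classes and because the members are so alike that their reads have to be told apart by a few bases. They are RefSeq mature sequences (GRCm38.p6) and are identical to the NCBI37/mm9 loci in the deposited tracks. Capitals mark the seed, bases 2 to 8 from the 5′ end.
miR-200b: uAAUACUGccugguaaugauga
miR-429: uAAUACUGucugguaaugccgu
miR-200c: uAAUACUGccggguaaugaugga
miR-200a: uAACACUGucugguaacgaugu
miR-141: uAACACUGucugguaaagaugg
The first 3 share the seed AAUACUG and the last 2 the seed AACACUG, and no other of the 756 listed sequences carried either seed. Counted from 1 at the 5′ end, the classes differ by U4C in the seed, with the base of miR-200b given first. Within a class, miR-200b and miR-200c differed at 2 of 22 aligned positions (U11G and A22G), and miR-200a and miR-141 also at 2 of 22 (C17A and U22G). Each of these pairs has one member on chromosome 4 and one on chromosome 6. How many mismatches the mapping allowed is not given in the sources used here, and the exchange of reads inside these pairs was not tested.

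The genes lie in a pair of clusters, all on the minus strand of NCBI37/mm9. On chromosome 4, Mir200b (155429790 to 155429859), Mir200a (155429005 to 155429094) and Mir429 (155428014 to 155428096) span 1846 bp. They lie inside an intron of the coding gene Ttll10 and within the processed transcript Gm13648, where Mir200b and Mir200a are intronic and Mir429 overlaps an exon. On chromosome 6, Mir200c (124668340 to 124668408) and Mir141 (124667932 to 124668003) span 477 bp in an intron of the processed transcript Gm15884, with Phb2 964 bp to one side and Ptpn6 2317 bp to the other. The seed classes cut across the clusters, since each cluster holds at least 1 member of either class.

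The deposited values are the percent of a library's miRNA reads at each locus and are written here as reads per 1000000 miRNA reads (RPM). The low values step by whole reads, which gave between 7285275 and 10017954 miRNA reads per library, so 1 read was worth between 0.0998 and 0.137 RPM and the floor of 3 reads lay between 0.299 and 0.412 RPM. The intervals below are 95% intervals for counting error only, as amplified reads are not independent molecules. Markers of hippocampal neurons (8 miRNAs, among them miR-9 and miR-128) held between 201823 and 234685 RPM.

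The family was a minor part of the hippocampal miRNAs. Its summed level ran from 112 to 356 RPM, with a median of 219.6 RPM, and 97.6% of its 12418 reads came from the chromosome 4 cluster. miR-200a ranked 173 of 756 sequences by mean level, at 129 ± 56.4 RPM (SD over the 7 libraries). miR-200b followed at 72.3 ± 30.1 RPM, miR-429 at 9.72 ± 4.57 RPM, miR-200c at 2.97 ± 3.97 RPM and miR-141 at 2.25 ± 2.75 RPM. The mature products are 22 or 23 nt long, so their RPM compare reads per molecule of like length, although adapter ligation can favour one sequence over another. Down to miR-200c each member exceeded the next in 7 of 7 libraries, with an adjusted p of 0.0208 for each of these 3 steps (exact sign-flip permutation test over libraries, two-sided, 4 steps adjusted together; the raw p of 0.0156 is the smallest that 7 libraries allow). miR-200c and miR-141 did not differ beyond their spread, with miR-200c higher in 5 of 7 libraries and an adjusted p of 0.359 in the same exact permutation test.

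**Figure D1:**
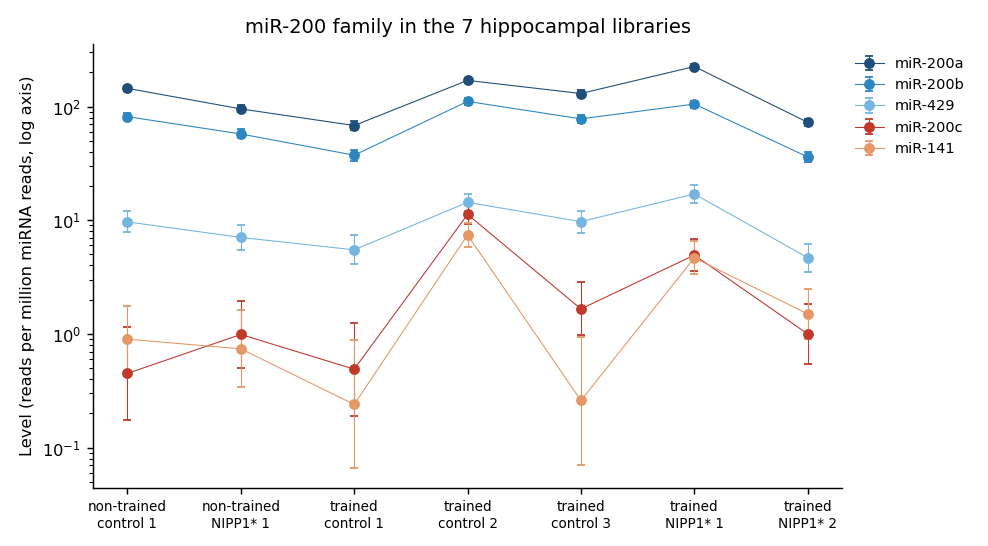
Level of each guide product in RPM (log axis) in each library, with 95% Wilson intervals for counting error; lines only join the points of one member. The second trained control and the first trained NIPP1* library hold the highest 2 values of every member, and miR-200c and miR-141 stay at or below 1.66 RPM in the other 5.

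The chromosome 4 guides moved as a block from library to library. miR-200a, of the AACACUG class, stood at 144 RPM in the library of non-trained controls and 95.3 RPM in that of non-trained NIPP1* mice, at 68.0, 169.7 and 130.1 RPM in the trained controls and at 225 and 72.7 RPM in the trained NIPP1* libraries. miR-200b, of the AAUACUG class, stood at 81.4 and 57.35 RPM in the same non-trained libraries, at 37.3, 110.9 and 77.9 RPM in the trained controls and at 105 and 36.0 RPM in the trained NIPP1* libraries. Both were high in the second trained control and the first trained NIPP1* library and low in the first trained control and the second trained NIPP1* library, so the groups overlapped. miR-429 was far scarcer, with 9.67 and 7.06 RPM in the non-trained, 5.49, 14.4 and 9.72 RPM in the trained control and 17.0 and 4.69 RPM in the trained NIPP1* libraries.

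Over the 7 libraries the levels of the chromosome 4 guides were closely related. Pearson's r was 0.936 for miR-200b and miR-200a (exact permutation p = 0.00179), 0.955 for miR-200b and miR-429 (exact permutation p = 0.00119) and 0.982 for miR-200a and miR-429 (exact permutation p = 0.000794). The adjusted p over these 3 pairs was 0.00179 for each of them by Pearson's r, and Spearman's rho was 0.929 for each pair with an adjusted p of 0.00675 (exact permutation test). Without the 2 libraries farthest from the median of the first member of each pair, r was 0.872, 0.933 and 0.969. The track headers of all 7 libraries carry the same date and lane, and no other batch is named.

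The chromosome 6 guides held between 2 and 15 reads in 5 libraries and between 34 and 94 in the other 2. miR-200c, of the AAUACUG class, was counted with 4 and 8 reads in the non-trained libraries (control first), with 4, 94 and 13 reads in the trained controls and with 36 and 10 reads in the trained NIPP1* libraries. miR-141, of the AACACUG class, had 8 and 6 reads in these, with 2, 62 and 2 reads in the trained controls and with 34 and 15 reads in the trained NIPP1* libraries. The second trained control and the first trained NIPP1* library were thus high for both, one library of each trained group, however the trained libraries are assigned. Since these 2 libraries stand apart, no pooled correlation is given for this pair.

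Libraries of one group differed beyond counting error, by amounts that depended on the pair. Between the second and the first trained control, the log2 ratio was 4.53 for miR-200c (95% exact interval 3.12 to 6.43) and 4.93 for miR-141 (3.01 to 8.0, on 62 against 2 reads). For the chromosome 4 guides of the same libraries it was 1.32 for miR-200a (1.18 to 1.46), 1.57 for miR-200b (1.38 to 1.76) and 1.39 for miR-429 (0.88 to 1.92). The second trained control exceeded the third by less in the chromosome 4 guides, with log2 ratios of 0.38 for miR-200a (0.27 to 0.50), 0.51 for miR-200b (0.36 to 0.66) and 0.56 for miR-429 (0.14 to 1.00), and by 2.76 for miR-200c and 4.86 for miR-141. The first trained NIPP1* library exceeded the second by log2 ratios of 1.63 for miR-200a, 1.54 for miR-200b, 1.86 for miR-429, 2.31 for miR-200c and 1.64 for miR-141. In both pairs of trained controls the intervals of the chromosome 6 guides lay above those of the chromosome 4 guides. Between the trained NIPP1* libraries the intervals of both clusters overlapped.

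Among all miRNAs tested this variation was wide. The SD of log2(RPM + 0.5) over the 7 libraries was 1.35 for miR-200c and 1.32 for miR-141, ranks 3 and 4 of 476, and 0.66, 0.65 and 0.64 for miR-200b, miR-429 and miR-200a, ranks 17, 19 and 20. miR-200c and miR-141 reached the mean of 10 reads only through the second trained control and the first trained NIPP1* library. Those 2 libraries also make their SD wide, so their ranks are a description only. The median over the 476 miRNAs was 0.22 and the 90th percentile 0.42. Scarce miRNAs can vary more through counting error. Apart from the 5 guides, 0 of 87 miRNAs within 2 times the mean level of miR-200c had an SD as large as it. For miR-141 the count was 0 of 79, while miR-200c itself, which lies in that range of levels, exceeded it. The mean levels of miR-200c and miR-141 rest on the 2 libraries where they were high, so this matching is not independent of their SD. For the chromosome 4 guides the counts, again without the other guides, were 2 of 68 for miR-200a, 4 of 83 for miR-200b and 5 of 103 for miR-429. The highest library was at least 2 times the lowest for 5 of 5 members, against 17.0% of all miRNAs tested, and at least 4 times the lowest for 2 of 5, against 2.73%. The second trained control and the first trained NIPP1* library were the 2 highest for 5 of 5 members, a pair picked after seeing the data. Of all miRNAs tested, 4.41% had this pair as their 2 highest, the members included. The chromosome 4 guides moved together, so the 5 members are not separate observations. On the RPM + 0.5 scale the highest library exceeded the lowest 12.4-fold for miR-200c and 10.7-fold for miR-141. Without the second trained control and the first trained NIPP1* library, a setting chosen after seeing the data, these ratios were 2.27 and 2.70.

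Ratios within a library do not depend on its depth or on the scaling. miR-429 reads made up between 11.9% and 16.2% of miR-200b reads, a range of 1.36-fold, and miR-200a reads between 153% and 214% of miR-200b reads, a range of 1.39-fold. Within the chromosome 6 cluster, miR-141 reads were 15.4% of miR-200c reads in the third trained control (2 against 13 reads). They were 200% in the non-trained control (8 against 4 reads), a range of 13-fold. Across the clusters and within one seed class, miR-200c made up the smallest percentage of miR-200b reads, 0.552% (4 reads, 95% exact interval 0.15% to 1.42%), in the library of non-trained controls and 10.2% in the second trained control (95% exact interval 8.12% to 12.6%). In the first trained NIPP1* library this ratio was 4.70% (3.27% to 6.56%). miR-141 reads likewise made up 0.197% of miR-200a reads in the third trained control (2 reads, 0.024% to 0.712%), 4.37% in the second (3.33% to 5.64%), and 2.08% and 2.06% in the trained NIPP1* libraries. The cross-cluster ratios ranged 18.4-fold and 22.2-fold, and 8.51-fold and 10.6-fold without the second trained control, a setting added after seeing the data. Outside the second trained control and the first trained NIPP1* library, the intervals of miR-200c to miR-200b all overlapped. The extremes were 0.15% to 1.42% in the non-trained control and 1.32% to 5.15% in the second trained NIPP1* library. For miR-141 to miR-200a, 0.024% to 0.712% in the third trained control lay below 1.15% to 3.42% in the second trained NIPP1* library. The part of read exchange inside the near-identical pairs was not tested. The chromosome 6 cluster gave between 0.570% and 2.15% of the family's reads in 5 libraries, 5.95% in the second trained control and 2.70% in the first trained NIPP1* library.

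**Figure D2:**
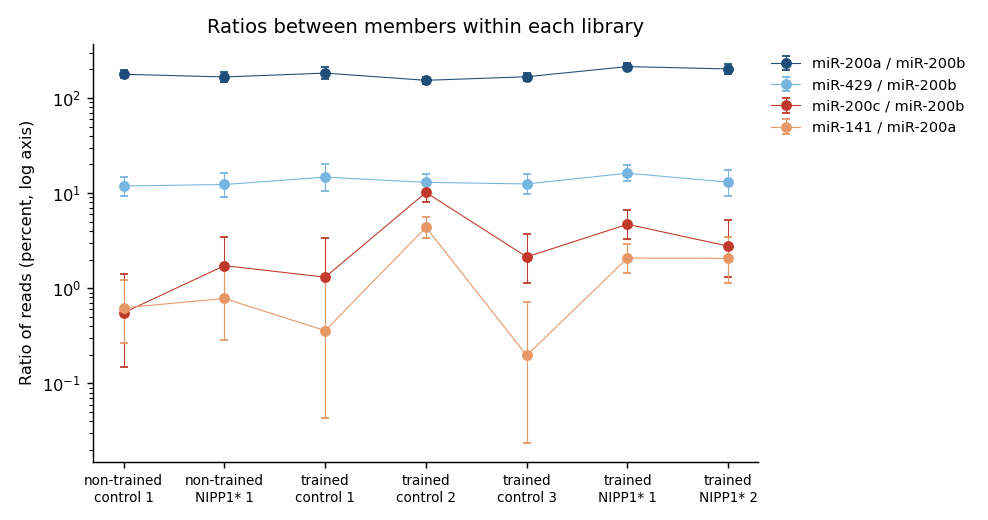
Ratio of the reads of 2 members within each library, in percent on a log axis, with 95% exact intervals; lines only join the points of one ratio. The ratios within the chromosome 4 cluster (blue) range 1.36-fold and 1.39-fold and those across the clusters (red and orange) 18.4-fold and 22.2-fold, or 8.51-fold and 10.6-fold without the second trained control. The ratio within the chromosome 6 cluster, miR-141 to miR-200c, is not drawn and ranges 13-fold.

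The balance of the seed classes varied little. The AACACUG class (miR-200a and miR-141) held between 56.5% and 64.3% of the family's reads and the AAUACUG class (miR-200b, miR-429 and miR-200c) between 35.7% and 43.5%. The AACACUG share was highest in the 2 trained NIPP1* libraries, at 64.3% (95% Wilson interval 62.5% to 66.2%) and 64.0% (61.2% to 66.7%), and lay between 56.5% and 61.3% in the other 5. The counting intervals of the first trained control (58.0% to 64.3%) and the non-trained control (59.2% to 63.4%) overlap both of these, and those of the third trained control (up to 61.6%) and the non-trained NIPP1* library (up to 62.1%) overlap the second. In the same way, miR-200a reads were 214% and 202% of miR-200b reads in the trained NIPP1* libraries and 182%, 153% and 167% in the trained controls. In the non-trained libraries they were 177% in the control and 166% in the NIPP1* library, both within the range of the trained controls. The values of the 2 trained groups did not overlap. Of all miRNAs tested, 26.5% had levels that did not overlap between these groups, but no such share was computed for ratios. The counting intervals do overlap, with 158% to 210.3% for the 182% and 178% to 229% for the 202%. This ratio was singled out after its values were seen. It is a description, with no test. Under the grouping of the tables the 2 libraries labelled trained NIPP1* are the trained controls.

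The other arm of the hairpins was scarce. The sequences of the listed other-arm products are given to show that they share none of the seeds above.
miR-200b*: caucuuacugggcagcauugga
miR-200a*: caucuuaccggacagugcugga
miR-200c*: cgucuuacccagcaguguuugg
miR-141*: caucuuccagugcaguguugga
Over all libraries miR-200b* gave 3.30% of the reads of its hairpin (142 against 4155 guide reads, 95% Wilson interval 2.81% to 3.88%), while miR-200a* gave 0.710% (53 against 7410, interval 0.543% to 0.928%). The guides of these neighbouring hairpins thus kept a larger share in Mir200a than in Mir200b. miR-141* gave 9.79% of its hairpin's reads (14 against 129, interval 5.92% to 15.8%) and miR-200c* 1.17% (2 against 169, interval 0.321% to 4.16%). Of the 16 other-arm reads of the chromosome 6 hairpins, 13 were in the second trained control and the first trained NIPP1* library, where the guides were also highest. No locus is listed for miR-429*. miR-200b* ran from 0.73 RPM in the first trained control to 5.39 RPM in the second, where its guide was also low and high. In the non-trained libraries it did not follow its guide, as it was lower in the control (1.46 RPM) than in the NIPP1* library (2.73 RPM), with shares of 1.76% (95% Wilson interval 1.03% to 2.99%) and 4.54% (3.01% to 6.77%). It was the 1 other-arm product that reached a mean of 10 reads.

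The first comparison asked whether the members differed after training, with the 5 trained set against the 2 non-trained libraries. None of the 5 members passed the test, and no miRNA did. limma on log2(RPM + 0.5) called 0 of 476 miRNAs (0.0%) at a Benjamini-Hochberg adjusted p under 0.05. At an unadjusted p under 0.05 there were 26 (5.46%), of which 0 were members. DESeq2 on recovered reads called 1 miRNA and edgeR 0, none of them a member, and at an unadjusted p under 0.05 DESeq2 had 17, of which 1 was a member (miR-200c). miR-200c averaged 3.87 ± 4.48 RPM (SD, n = 5) in the trained libraries, which ran from 0.49 to 11.25 RPM, against 0.45 and 0.99 RPM in the non-trained ones. Its log2 difference was 1.29 (SE 0.84, limma adjusted p = 0.816). With DESeq2 it was 2.50 (unadjusted p = 0.0104, adjusted p = 0.819), and without the second trained control library 0.78 (limma adjusted p = 0.957). miR-141 averaged 2.82 ± 3.14 RPM (SD, n = 5) against 0.90 and 0.74 RPM, a log2 difference of 0.71 (SE 0.89, limma adjusted p = 0.898), which was 1.84 with DESeq2 and 0.24 without the second trained control. The chromosome 4 guides differed by 0.03 (miR-200a, 95% interval -0.99 to 1.05), -0.06 (miR-200b, -1.11 to 0.99) and 0.14 (miR-429, -0.92 to 1.19), so these data leave room for a change of about 2-fold either way. A log2 difference above 0 was found for 4 of 5 members and for 39.3% of all miRNAs tested. Without one library at a time the count of members ran from 2 to 5. Trained and non-trained libraries overlapped for 5 of 5 members. Of all miRNAs tested, 11.6% did not overlap. The median log2 difference was 0.14 over the members and -0.06 over all miRNAs tested.

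The same question within each genotype rests on 1 non-trained library each, with the spread taken from the trained groups. Both comparisons called 0 of 476 miRNAs (0.0%) in limma, with 28 (5.88%) and 21 (4.41%) at an unadjusted p under 0.05 in controls and NIPP1* mice. DESeq2 called 1 and 2 miRNAs and edgeR 0 and 0. With the tables' grouping the unadjusted counts were 12 and 9. In controls, miR-200c had a log2 difference of 1.62 (SE 1.30, limma adjusted p = 0.712), and in NIPP1* mice miR-141 had one of 1.37 (SE 1.41, limma adjusted p = 0.973). These values were 1.59 and 0.41 with the tables' grouping and 3.39 (unadjusted p = 0.0408, adjusted p = 0.787) and 2.09 with DESeq2. Without one library at a time they ran from 0.62 to 2.41, the lowest without the second trained control, and from 0.69 to 2.06, the lowest without the first trained NIPP1* library. The log2 difference was above 0 for 2 of 5 members in controls, against 40.5% of all miRNAs, and for 5 of 5 in NIPP1* mice, against 43.9%. The chromosome 4 guides lay between -0.33 and -0.07 in controls and between 0.10 and 0.42 in NIPP1* mice, each with an SE of at least 0.68. With the tables' grouping they were -0.40 for miR-200b, -0.18 for miR-200a and -0.09 for miR-429 in controls and 0.26, 0.26 and 0.36 in NIPP1* mice. miR-141 in controls was 0.23 by the labels and 1.20 with the tables' grouping, and miR-200c in NIPP1* mice 0.94 and 0.98. All 10 values kept their sign under both groupings. They did not under leaving out libraries: without the first trained NIPP1* library, miR-200b was -0.66, miR-200a -0.39 and miR-429 -0.54 in NIPP1* mice, and 2 of 5 members stayed above 0. In controls the count above 0 ran from 1 to 5.

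No member passed the test between trained NIPP1* and trained control libraries. limma called 0 of 476 miRNAs (0.0%), with 34 (7.14%) at an unadjusted p under 0.05, DESeq2 called 1 and edgeR 0, and 0 of these were members. The log2 differences, trained NIPP1* minus trained control, were 0.16 for miR-200a (148.6 ± 107 RPM, SD, n = 2, against 123 ± 51.2 RPM, n = 3), -0.15 for miR-200b, -0.02 for miR-429, -0.04 for miR-200c and 0.97 for miR-141 (SE 1.05, limma adjusted p = 0.783). The value of miR-141 was 0.19 with DESeq2 and, without one library at a time, ran from 0.28 (without the first trained NIPP1* library) to 2.10 (without the second trained control). A log2 difference above 0 was found for 2 of 5 members and for 56.3% of all miRNAs. Without one library at a time the sign turned for 4 of 5 members, all but miR-141, with ranges of -0.65 to 0.97 for miR-200a, -0.92 to 0.61 for miR-200b, -0.90 to 0.85 for miR-429 and -0.97 to 0.97 for miR-200c. All 5 differences take the opposite sign under the grouping of the tables. The groups overlapped for 5 of 5 members, while 26.5% of all miRNAs tested did not overlap. The training effect was also not shown to differ between genotypes, as limma's interaction term called 0 of 476 miRNAs (0.0%), with 37 (7.77%) at an unadjusted p under 0.05, DESeq2 2 and edgeR 0. The members' interaction terms ran from -0.69 (miR-200c, SE 1.90) to 1.14 (miR-141, SE 1.93), with 4 of 5 above 0 (from 1 to 5 without one library at a time), against 52.9% of all miRNAs. Without one library at a time that of miR-141 ran from 0.46 to 2.28. With the tables' grouping the terms were 0.66 for miR-200b, 0.44 for miR-200a, 0.45 for miR-429, -0.61 for miR-200c and -0.79 for miR-141, and 6 miRNAs had an unadjusted p under 0.05.

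**Figure D3:**
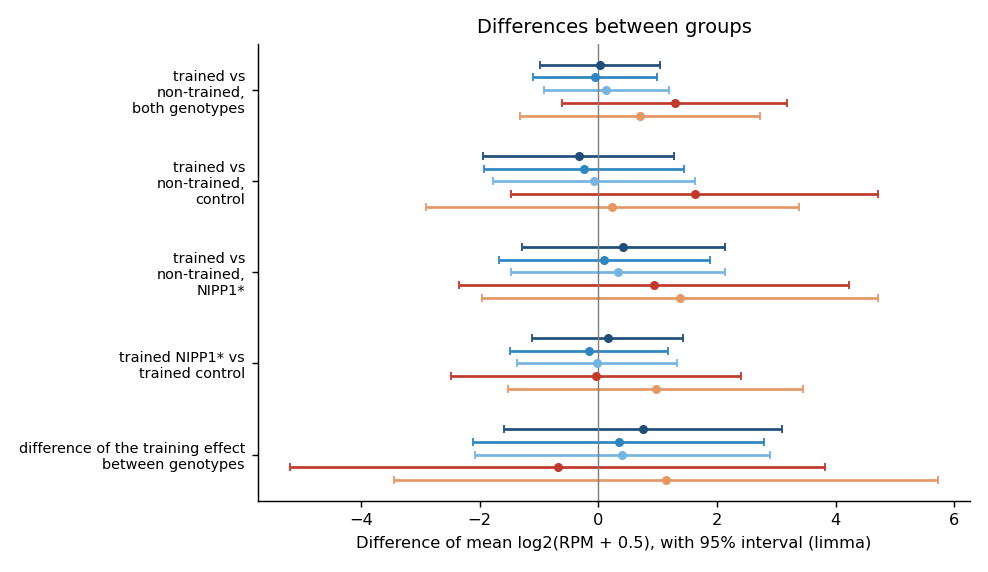
Difference of mean log2(RPM + 0.5) of each member in the 5 tested comparisons, with the 95% interval from limma; the bottom row is the training difference in NIPP1* mice minus that in controls. Every interval includes 0, and those of miR-200c and miR-141 are the widest in each comparison.

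Between the non-trained libraries there is no replicate, so no test was made and the intervals cover counting error only. miR-200a was lower in the non-trained NIPP1* than in the non-trained control library, with a log2 ratio of -0.60 (95% exact interval -0.73 to -0.47), and so was miR-200b at -0.51 (-0.68 to -0.34). miR-429 (-0.45, interval -0.96 to 0.05) and miR-141 (-0.28, interval -2.08 to 1.44) had intervals that include 0. miR-200c had a log2 ratio of 1.14 on 8 against 4 reads (interval -0.76 to 3.32). It was the 1 of 5 members past a log2 ratio of 1 in size, which 2.52% of all miRNAs tested were. A ratio below 0 was found for 4 of 5 members and for 47.9% of all miRNAs tested. In size, the ratios of the chromosome 4 guides were smaller than those between the second and the first trained control and between the trained NIPP1* libraries. They were near those between the second and the third trained control (0.38, 0.51 and 0.56 for miR-200a, miR-200b and miR-429).

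Apart from the 5 guides, the miRNAs whose profile over the 7 libraries was most like the mean log2 level of the 5 members were miR-770-5p (Pearson's r 0.91), miR-370 (0.90), miR-877* (0.90), miR-200b* (0.86), miR-325* (0.85), miR-1247 (0.84), miR-433 (0.84), miR-541 (0.82), miR-324-3p (0.82) and miR-652 (0.81). These values describe 7 points that share their libraries. The median r over the 471 miRNAs other than the 5 guides was -0.05. The profiles of most of the 10 were much flatter than those of the members. miR-370 ran from 213 RPM in the first trained control to 371 RPM in the second, and miR-541 from 2701 to 3306 RPM in the same libraries. miR-200b* was the 1 of the 10 whose highest library exceeded its lowest more than 4-fold (4.79-fold on the RPM + 0.5 scale).

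**Figure D4:**
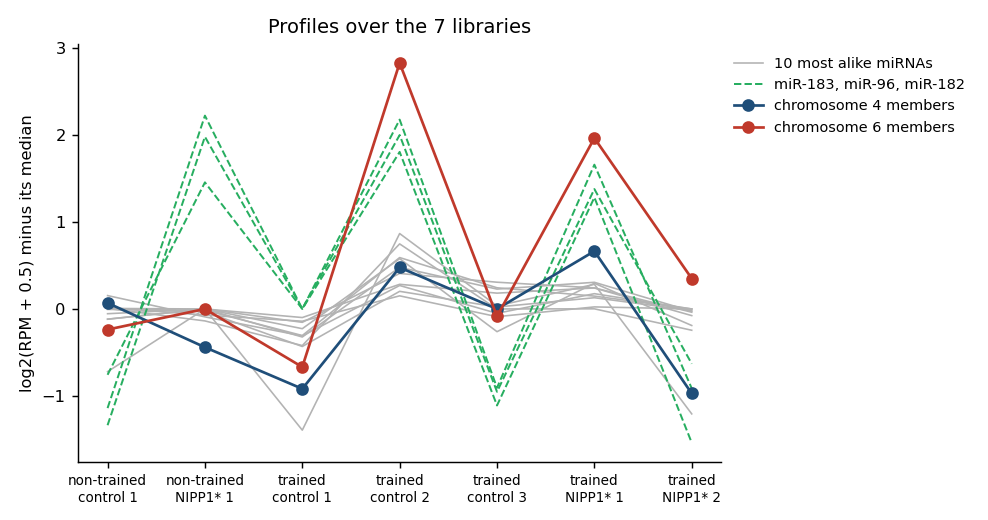
Mean log2(RPM + 0.5) of the chromosome 4 members (dark blue) and chromosome 6 members (red) in each library, minus its median over the 7, with the 10 most alike miRNAs in grey and the miR-183 cluster in dashed green; lines only join points of one profile. Both clusters of the family peak in the second trained control and the first trained NIPP1* library, while miR-183, miR-96 and miR-182 are also high in the non-trained NIPP1* library.

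Markers of other cell types were set beside these profiles from lists of epithelia, choroid plexus and other cells. In the list of epithelium and sensory epithelium, miR-183, miR-96 and miR-182, which come from one cluster and are typical of sensory epithelia, ranged 10.3-fold, 7.73-fold and 11.4-fold on the RPM + 0.5 scale. miR-183 stood at 11.0 RPM in the library of non-trained controls and 117.9 RPM in that of non-trained NIPP1* mice, at 24.9, 114 and 13.1 RPM in the trained controls and 79.6 and 13.0 RPM in the trained NIPP1* libraries. It was high in the 2 libraries in which the family was high, and also in the non-trained NIPP1* library, in which miR-200c and miR-141 were below 1 RPM. miR-205, a marker of stratified epithelia, was at or below 2.16 RPM throughout, with its highest value in the second trained control. miR-203, of skin and other epithelia, ran from 63.2 to 99.0 RPM with its highest value in the third trained control. The leading miRNAs of the list differed between the 2 libraries in which the family was high. In the second trained control miR-194 was at its lowest (345 RPM) and miR-192 was at its lowest together with the third (133 RPM). In the first trained NIPP1* library miR-192 was at its highest (193 RPM) and miR-194, at 438 RPM, near its highest of 440.6 RPM. Of the 7 tested members of the list, 2 had their highest value in the second trained control or the first trained NIPP1* library. The summed level of the 9 miRNAs of this list, led by miR-194 and miR-192, ran from 783 to 1101 RPM and was highest in the non-trained NIPP1* library, followed by the first trained NIPP1* library (1032 RPM) and the second trained control (953 RPM).

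The choroid plexus and ependyma list (10 of 11 found) ran from 1208 to 4871 RPM and was highest in the first trained control, where the family was lowest. It was next highest, at 4017 RPM, in the first trained NIPP1* library, where the summed level of the family was highest. In the second trained control, where the family was also high, the list stood at 1645 RPM. Its miR-204 ran from 400.1 to 1154 RPM over the 7 libraries. The pituitary and neuroendocrine list (3 miRNAs) ran from 7532 to 14200 RPM, and its miR-375 from 58.9 to 75.6 RPM, a 1.28-fold range. Vessel markers (3) ran from 13812 to 17619 RPM, oligodendrocyte markers (2) from 3212 to 5396 RPM, leukocyte and microglia markers (5) from 1103 to 1600 RPM and red blood cell markers (2) from 61.5 to 250.2 RPM. Of the members of these lists and the neuron list that were tested, 7, 8, 3, 3, 2, 5, 2 and 8 in the order named, 0 were called between trained and non-trained libraries, against 0.0% of all miRNAs. Fewer cells of a type and less RNA per cell cannot be told apart in whole tissue, and the part of any cell type in the levels of the family was not tested.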

How the data were processed

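Small RNA of hippocampus was sequenced in 7 libraries and handled by the authors with CASAVA 1.7.0, Bowtie and bedtools, per the submitters' notes, through the ncPRO-seq pipeline. Inserts of 19 to 26 nt were mapped to NCBI37/mm9. The authors deposited, for each mature miRNA locus, its percent of the library's miRNA reads. The authors also deposited tables whose signal is the mean of size-factor normalised reads of a group. These served to name the miRNAs and to compare the grouping. Their columns of fold changes and p-values hold the authors' comparisons and were not used, nor were 2 columns of values per library.

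Percentages were written as RPM, and loci with one sequence were averaged, which gave 756 sequences from 806 loci. Of these, 614 were named from the authors' tables and 113 by exact RefSeq sequence, and 29 sequences stayed unnamed, 3 of them tested. Low values step by 1 read, so whole reads could be recovered. Among values up to 100 reads of sequences with a single locus, 100% came out whole within the rounding of the percentages and a small margin. The recovered reads came to 58637475 in all. In the authors' tables, the low values of both non-trained libraries were 100% whole within 0.02 of a read.

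limma-trend was fitted to log2(RPM + 0.5) of 476 miRNAs, those averaging 10 reads or more per library. Adjusted p-values (Benjamini-Hochberg) are over all 476. This scale understates changes of low miRNAs. Trained against non-trained was a fit of 2 groups, and the other comparisons were contrasts of a model of 4 groups over all 7 libraries. The test was checked on simulated data. Alternatives were TMM, DESeq2 and edgeR on recovered reads, other pseudocounts and read minimums, other models, the grouping of the tables and leaving out libraries.

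The members, the marker lists and the tests were chosen with earlier results of these data known. The text names the members, their other arms, the 10 miRNAs outside the family most correlated with its mean log2 level, and up to 4 leading miRNAs per marker list. miR-183, miR-96, miR-182, miR-203, miR-205, miR-204 and miR-375 were named from those lists, some of them after their values were seen. Software was Python 3.11.15 with pandas 2.3.3, scipy 1.17.1 and numpy 2.4.6, and R 4.3.3 with DESeq2 1.42.0, edgeR 4.0.16 and limma 3.58.1.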

Additional observations from a re-analysis of the deposited data

How the results depend on the processing

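No member was called under any alternative in the 5 tested comparisons, and over the 355 values of members under these alternatives the lowest adjusted p was 0.267. DESeq2 on recovered reads called 1 miRNA between trained and non-trained libraries of both genotypes, 1 in controls, 2 in NIPP1* mice, 1 between the trained genotypes and 2 for the interaction, where limma and edgeR called 0. Leaving out each library in turn, limma called 0 miRNAs.

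The sign turned for 46 of the 355 values. For both genotypes, miR-200b was 0.16 with DESeq2 and 0.15 with edgeR, and in controls miR-429 was 0.12 with either and miR-141 was -0.040 with a pseudocount of 0.1 RPM. Between the trained genotypes, miR-429 was 0.082 with DESeq2 and 0.037 with edgeR and miR-200c 0.049 with a pseudocount of 0.1 RPM, and with the grouping of the tables miR-200b was 0.15, miR-200a -0.16, miR-429 0.023, miR-200c 0.036 and miR-141 -0.97, by construction. The interaction of miR-141 was -0.79 with that grouping. For the other sign changes the cause was not tested.

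Without one library at a time, the log2 differences for both genotypes ran from -0.27 to 0.33 for miR-200a, from -0.31 to 0.20 for miR-200b and from -0.081 to 0.36 for miR-429. In controls they ran from -0.61 to 0.041 for miR-200a, from -0.59 to 0.19 for miR-200b, from -0.38 to 0.28 for miR-429 and from -0.90 to 0.81 for miR-141. In NIPP1* mice they ran from -0.39 to 1.23 for miR-200a, from -0.66 to 0.87 for miR-200b and from -0.54 to 1.21 for miR-429. Between the trained genotypes they ran from -0.65 to 0.97 for miR-200a, from -0.92 to 0.61 for miR-200b, from -0.90 to 0.85 for miR-429 and from -0.97 to 0.97 for miR-200c. For the interaction they ran from -0.056 to 1.57 for miR-200a, from -0.42 to 1.11 for miR-200b, from -0.47 to 1.28 for miR-429 and from -1.61 to 0.32 for miR-200c. Comparisons within a genotype could not be made without its only non-trained library, nor could the interaction. A lone library was assumed to vary like the other groups. No paired analysis was possible because the labels number the libraries by accession only. At 2 to 15 reads in most libraries, depth limits miR-200c and miR-141.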
